A study of Rattus norvegicus with 42 samples.

Results

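One wild-type library of the rat pituitary line GH4C1 stood apart from the other libraries of its group, and the genes described here are those whose level was shifted in it. They were chosen by their own values. Counts per 1000000 counts (CPM) were taken over the column sums without ENSRNOG00000043866 and ENSRNOG00000030478, the 2 genes that take up a large share of the knockout libraries. A gene was a member if its CPM in wild-type replicate 1 at 34 h was at least 4 times, or at most 0.25 times, its CPM in each of replicates 2 and 3. The larger of replicate 1 and the mean of replicates 2 and 3 also had to reach 10 CPM. The rule found 323 genes of the 13776 listed: 318 were higher in replicate 1 and are called raised (2.31% of the 13774 genes that entered), and 5 were lower and are called lowered (0.0363%). The values that chose them are given as a description, with no test.

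The study followed rhythmic gene expression in GH4C1 cells with and without the long noncoding RNA Neat1. Wild-type (WT) cells had no treatment. Knockout (KO) cells, genotype Neat1 -/-, were made with CRISPR-Cas9, and the labels do not give the number of clones behind them. Both genotypes were synchronised by transfer to fresh medium and harvested at 7 times, T10 to T34, that is 10 to 34 h later in steps of 4 h, with 3 libraries for each of the 14 combinations of genotype and time, 42 in all. The deposited tables list genes by Ensembl identifier and do not pair them with symbols, and none of the identifiers matched a symbol in the reference used. The members are therefore described by level, range and behaviour, with 2 raised and 2 lowered genes named by identifier. Neither Neat1 itself nor the markers of pituitary and other cell types were analysed here.

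GH4C1 is a somatolactotroph tumour line, a cell that makes growth hormone and prolactin. Neat1 is the architectural RNA of paraspeckles, nuclear bodies that form around it together with RNA-binding proteins such as NONO and SFPQ. Paraspeckles can retain some RNAs in the nucleus and hold back proteins that act on transcription elsewhere. Transfer of cultured cells to fresh serum-containing medium is a common way to bring the circadian clocks of the cells into a shared phase.

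WT T34 replicate 1 differed from its group far beyond the spread seen elsewhere. Applied to each of the other 41 libraries against its own group, the same rule found 1 to 9 raised genes (median 4) and 0 to 3 lowered genes. Between WT T34 replicate 1 and the other 2 libraries of its group, 2355 and 2998 genes differed by more than 2-fold, while in the other 40 pairs of replicates the number was 45 to 127. Its depth, 39.2 M counts (M for 1000000), lay within that of the other WT libraries, 34.5 to 68.8 M. The KO libraries held 45.9 to 60.5 M counts. The 3 main comparisons tested here leave out the WT libraries of T34, which chose the members; an alternative fit over all 42 libraries, given among the processing alternatives, includes them.

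**Figure D1:**
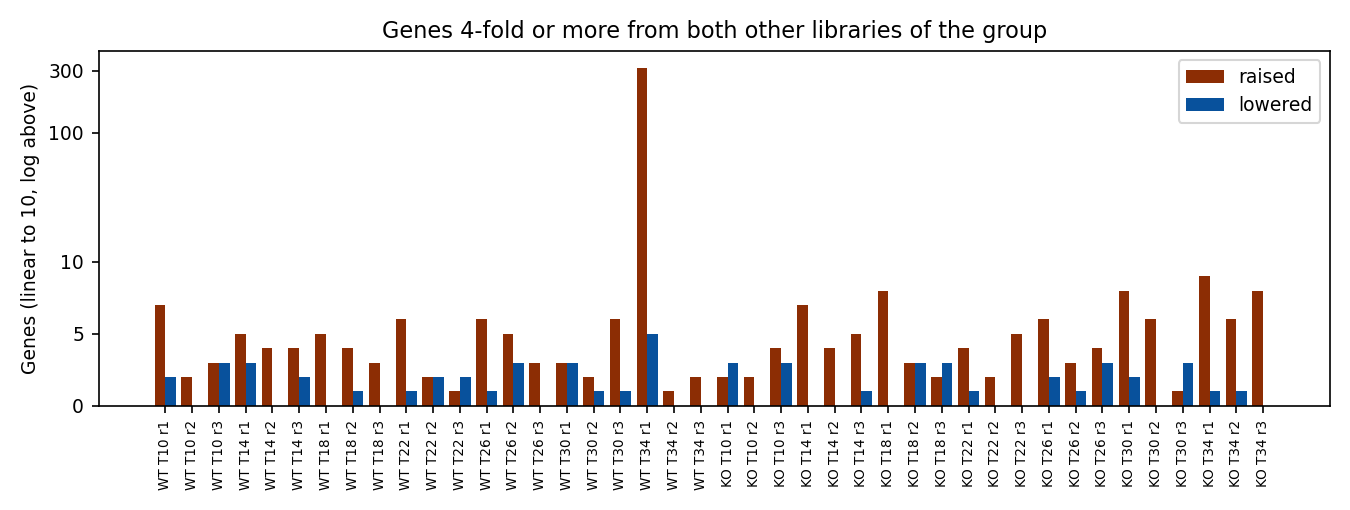
Number of genes (vertical axis, linear up to 10 and logarithmic above) at least 4 times above or below both other libraries of the same group, for each of the 42 libraries (r1 to r3 are replicates). WT T34 replicate 1 stands at 318 raised and 5 lowered genes, and no other library passes 9 raised or 3 lowered.

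The raised genes made up 4.23% of the counts in WT T34 replicate 1. Their summed level there was 42291 CPM, against 5840 CPM in replicate 2 and 7822 CPM in replicate 3. In the 18 WT libraries of T10 to T30 the sum was 6326 ± 343 CPM (SD, n = 18), with a range of 5737 to 6861 CPM. Replicate 2 lay within that range, replicate 3 a little above it, and replicate 1 stood alone among the WT libraries. The rule chose the genes by their level in replicate 1, so its high sum is built in. In KO the sum lay between WT and replicate 1: 21529 ± 1377 CPM (SD, n = 18) over T10 to T30. The 3 KO libraries of T34 held 20508, 15413 and 15917 CPM.

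The median over the genes gave the same order. Relative to each gene's WT mean over T10 to T30, on a log2(CPM + 0.1) scale, the median raised gene stood at 2.61 in WT T34 replicate 1, with quartiles of 2.29 and 3.01. The other 20 WT libraries had medians between -0.21 and 0.27, and the 21 KO libraries between 1.29 and 1.82. The median over all 13774 genes was 0.09 in replicate 1 and lay between -0.04 and 0.06 in the other 41 libraries. Replicate 1 was above all other 41 libraries in this median, a place that the choice of the genes by their level in it favours. No KO library overlapped the other WT libraries. In RNA from a whole culture, a change in the number of cells of one kind and a change in RNA per cell cannot be told apart.

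**Figure D2:**
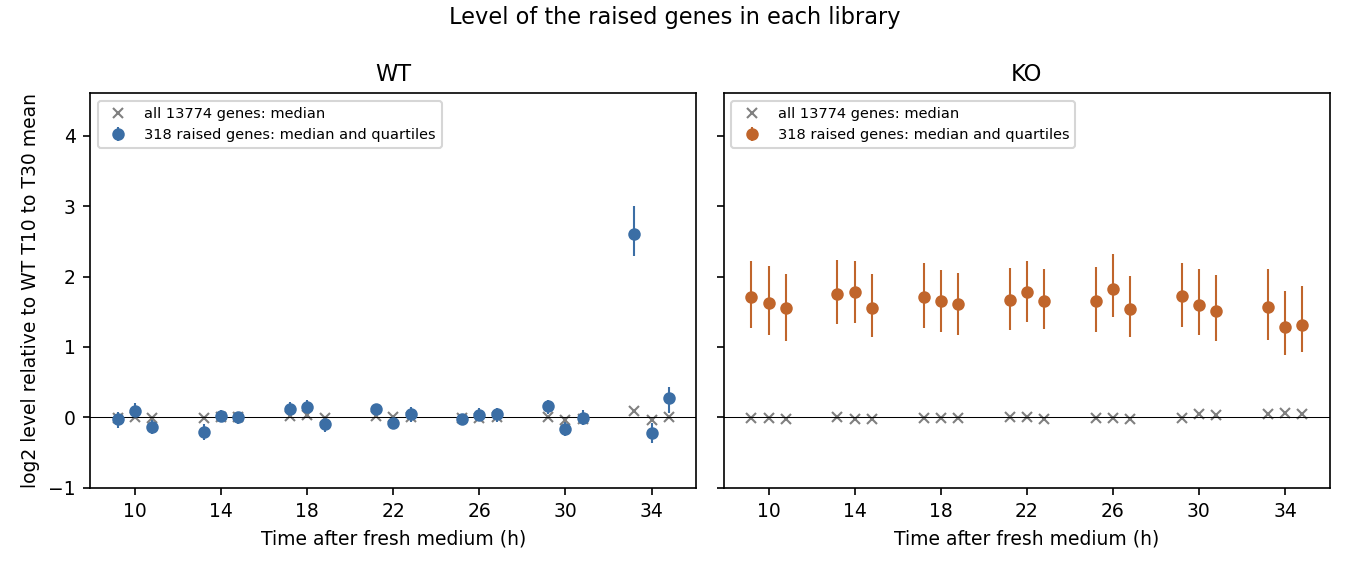
Level of the 318 raised genes in each of the 42 libraries by time after fresh medium (h), as the log2 difference from each gene's WT mean over T10 to T30. Points are medians over the genes, bars their quartiles and crosses the median of all 13774 genes. The single high WT point is T34 replicate 1 at 2.61, above every KO library (1.29 to 1.82). The genes were chosen by their high level in that library.

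The size of the shift varied among the raised genes. The ratio of replicate 1 to the mean of replicates 2 and 3 ran from 4.09 to 31.2, with a median of 5.82 and quartiles of 5.09 and 7.49. It reached 8 in 58 genes and 10 in 28. Levels in replicate 1 ran from 10.04 to 3587 CPM with a median of 50.6 CPM; 92 genes reached 100 CPM and 14 reached 500 CPM. Outside that library the raised genes were mostly of low abundance: their median WT level over T10 to T30 was 7.44 CPM, against 25.6 CPM for all genes. The 10 CPM minimum favours this, since 182 of the 318 passed it through replicate 1 alone. Depth was not short for any of them, as the smallest count in a WT T34 library was 28 and the median of these smallest counts was 322.5.

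At the edges of the rule, the raised gene nearest to the ratio limit had 25.1 CPM in replicate 1 against 3.96 and 6.26 CPM, and the nearest gene left out had 228 against 40.3 and 57.0 CPM. The raised gene nearest to the level limit had 10.04 CPM in replicate 1, and the nearest gene left out had 9.99 CPM. There was no gap in the values at either limit. With a ratio of 3 in place of 4 it takes in 666 raised and 23 lowered genes, and with a ratio of 8 it takes in 33 raised and 1 lowered.

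Set against single libraries, replicate 1 was above all other 20 WT libraries in 317 of the 318 raised genes, beside 41% of all 13774 genes. It was above all 21 KO libraries in 274 of them (86.2%), beside 34.4% of all genes, within the KO range in 38 and below it in 6 (1.89%), beside 25.6%. These positions rest on the library that chose the members, so a high place is built into them and nothing is read from the shares. Its level was a median 6.18 times the WT median over T10 to T30 and a median 2.01 times the KO median. That last ratio spread widely, from 0.171 to 54.4. In 22 raised genes the KO mean over T10 to T30 was higher than the level in replicate 1.

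The raised gene with the highest level in replicate 1 was ENSRNOG00000029971. It had 3587 CPM in replicate 1, 590 CPM in replicate 2 and 716 CPM in replicate 3. The 18 WT libraries of T10 to T30 ran from 483 to 706 CPM with a median of 525 CPM, and the 21 KO libraries from 846 to 1320 CPM with a median of 1117 CPM. KO and these WT libraries did not overlap, and replicate 1 was above both. Over T10 to T30 the gene was higher in KO, with a log2 difference of 1.05 (SE 0.04, adjusted p = 2.62e-20, edgeR's quasi-likelihood test with Benjamini-Hochberg adjustment over all genes).

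Next in level was ENSRNOG00000030700, with 2921 CPM in replicate 1, 514 CPM in replicate 2 and 629 CPM in replicate 3. WT libraries of T10 to T30 held 378 to 478 CPM (median 418 CPM), and KO libraries 823 to 2139 CPM (median 1691 CPM). Again every KO library was above every WT library of T10 to T30, and replicate 1 was above them all. WT replicates 2 and 3 of T34 were themselves a little above the earlier WT libraries. The KO difference over T10 to T30 was 2.04 on the log2 scale (SE 0.04, edgeR adjusted p = 2.64e-29). At T34 the KO libraries had 1884, 823 and 927 CPM in replicates 1, 2 and 3, and the last 2 were the lowest of all 21 KO libraries.

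**Figure D3:**
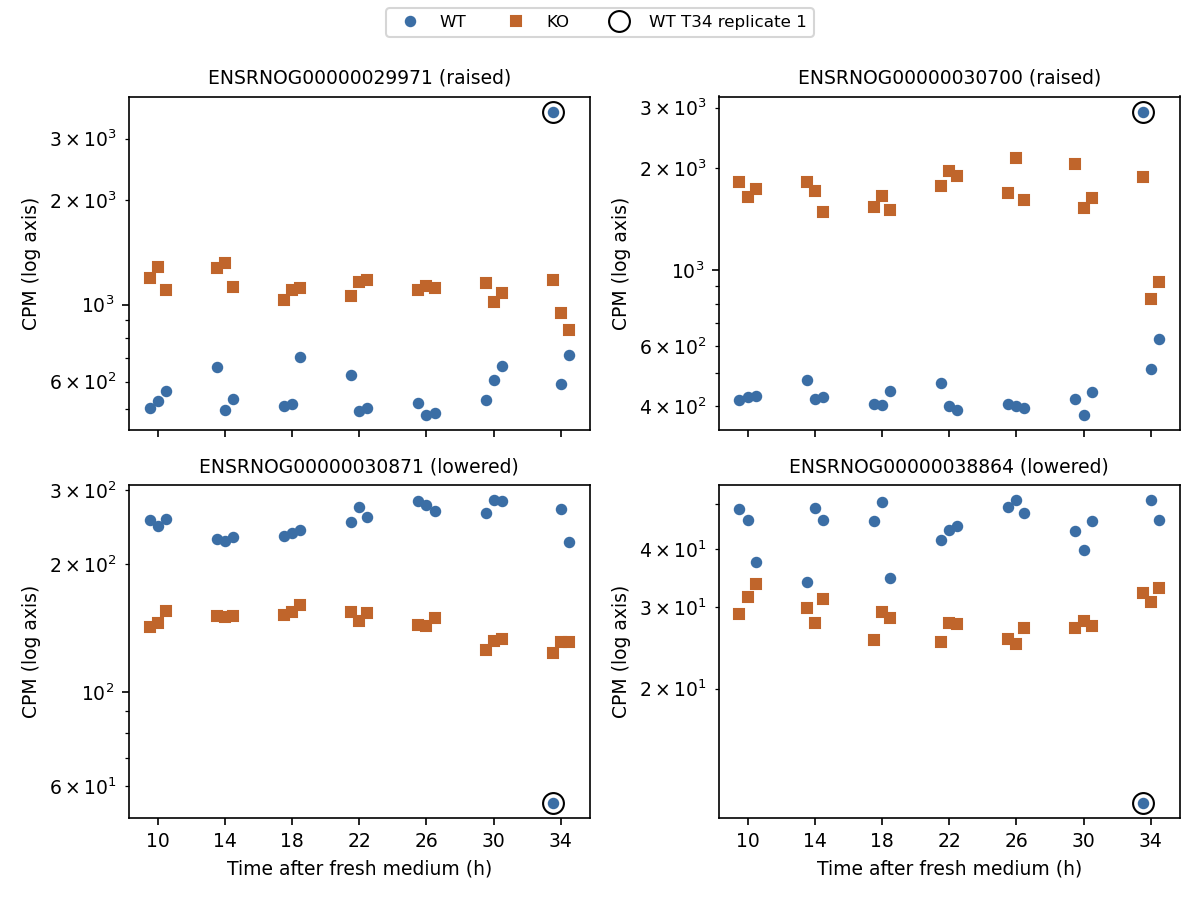
CPM (logarithmic axes, a different range in each panel) of the 2 raised and 2 lowered genes named by identifier in all 42 libraries, by time after fresh medium (h), with WT T34 replicate 1 ringed. In the upper panels the ringed library (3587 and 2921 CPM) lies above all KO libraries, and in the lower panels (54.8 and 11.4 CPM) it lies below them. The genes were chosen by the shift in that library.

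The first tested comparison asked whether the raised genes also differed between genotypes in libraries the rule had not used. Over T10 to T30, 18 KO against 18 WT libraries, edgeR called 309 of the 318 raised genes higher in KO (97.2%), beside 44.9% of the 13774 genes tested. It called 5 raised genes lower (1.57%), beside 45.6% of all genes, and 4 neither way. Their median log2 fold change was 1.67, with quartiles of 1.26 and 2.10 and a range of -2.01 to 5.32, while the median of all genes was -0.01. The median raised gene was thus 3.18 times as high in KO as in WT. Nearly all genes were called in one direction or the other at this depth and number of libraries, so the direction and the size carry more than the call.

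The genotypes were well separated in these genes. All 18 KO libraries were above all 18 WT libraries in 283 raised genes (89.0%), beside 24.7% of all genes tested. In no raised gene were all KO libraries below all WT libraries, beside 21.8% of all genes. Of the raised genes, 266 (83.6%) were called higher in KO by at least 2-fold, beside 13.2% of all genes. These were 14.6% of the 1821 genes so called. At 4-fold or more there were 103 raised genes (32.4%), beside 2.68% of all genes, and they were 27.9% of the 369 genes so called.

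Since the raised genes were of low abundance, the same count was taken by level. Of the 115 raised genes under 5 CPM in WT, 95.7% were called higher in KO, beside 51.1% of all genes at that level. Between 5 and 20 CPM it was 98.5% of 134 raised genes, beside 53.9% of all genes. At 20 CPM and above it was 97.1% of 69 raised genes, beside 38.8% of all genes. The median log2 fold change was 1.77, 1.65 and 1.59 in the 3 classes, so the KO difference of the raised genes was of like size at each level.

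A few raised genes did not follow the rest. The gene with the largest ratio, 31.2, had 28.7 CPM in replicate 1 against 1.03 and 0.812 CPM. Its WT libraries of T10 to T30 ran from 0.959 to 6.99 CPM and its KO libraries from 1.20 to 17.5 CPM, so the genotypes overlapped, and the KO difference was 0.95 (SE 0.38, edgeR adjusted p = 0.0193). The gene with the largest KO difference, a log2 fold change of 5.32, had 70.7 CPM in replicate 1, 13.0 and 14.2 CPM in replicates 2 and 3, 8.51 to 11.7 CPM in the earlier WT libraries and 366 to 459 CPM in KO. It is one of the 6 genes in which replicate 1 was below every KO library. The gene with the lowest KO difference, -2.01 (SE 0.53, edgeR adjusted p = 0.000798), had 20.7 CPM in replicate 1 and 1.91 and 1.60 CPM in replicates 2 and 3. It varied from 1.49 to 42.2 CPM among the earlier WT libraries, and is the 1 raised gene in which another WT library was above replicate 1. In all 5 raised genes called lower in KO, replicate 1 was above every KO library, as it was in 86.2% of the 318. The rule favours that place, and nothing is read from it.

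The relation with KO was graded and ran through the genes at or above the 10 CPM minimum, not just through the genes past the rule. Among the 10221 genes that reached the 10 CPM minimum, the log2 ratio of replicate 1 to the mean of replicates 2 and 3 and the log2 fold change of KO against WT over T10 to T30 had a Pearson correlation of 0.69 and a Spearman correlation of 0.69. Within the 318 raised genes, whose range of ratios the rule cuts, these were 0.27 and 0.37. The 2 measures share no library, but the correlation is across genes, which are not independent replicates, and is given as a description. The minimum itself uses replicate 1. A gene with a mean under 10 CPM in replicates 2 and 3 enters only where replicate 1 reaches 10 CPM. The part of this choice in the correlation was not tested.

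**Figure D4:**
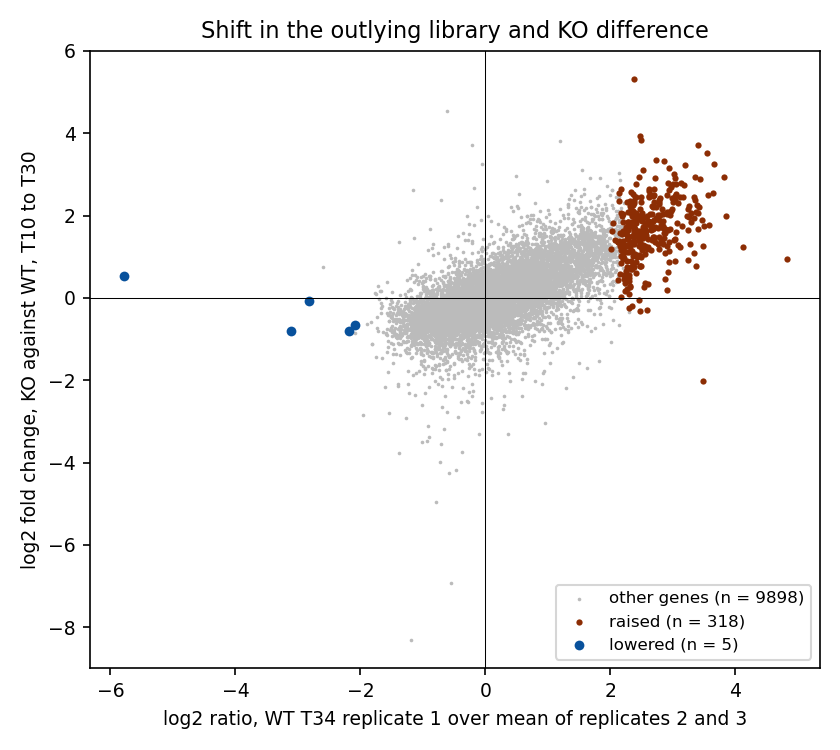
Each of the 10221 genes at or above the 10 CPM minimum, by the log2 ratio of WT T34 replicate 1 to the mean of replicates 2 and 3 (horizontal axis) and the log2 fold change of KO against WT over T10 to T30 (vertical axis). The raised genes continue the slope of the other genes, with a median log2 fold change of 1.67, and the 5 lowered genes lie between -0.80 and 0.53.

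The same 10221 genes were put in classes of the ratio of replicate 1 to the mean of replicates 2 and 3. The median KO log2 fold change was -0.58 at ratios of 0.25 to 0.5 (546 genes) and -0.31 at 0.5 to 1 (4193 genes). At 1 to 2 it was 0.19 (3630 genes). It was 0.75 at 2 to 3 (980 genes), 1.11 at 3 to 4 (421 genes), 1.41 at 4 to 6 (296 genes), 1.85 at 6 to 8 (90 genes) and 2.12 at 8 or more (58 genes). The share called higher in KO went from 6.23% in the class of 0.25 to 0.5 to 86.8% at 2 to 3 and 98.3% at 8 or more. The share called lower went from 89.7% to 9.18% and 1.72%. Genes just below the rule's limit therefore resembled the raised genes. The moderately reduced genes, for which the rule has almost no members, had the opposite KO direction. In the class of 0.25 to 0.5, 89.7% were called lower in KO, beside 45.6% of all 13774 genes. Replicate 1 was below every KO library for 76.9% of that class, beside 25.6% of all genes. The class was chosen by a low replicate 1, so nothing is read from that place.

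**Figure D5:**
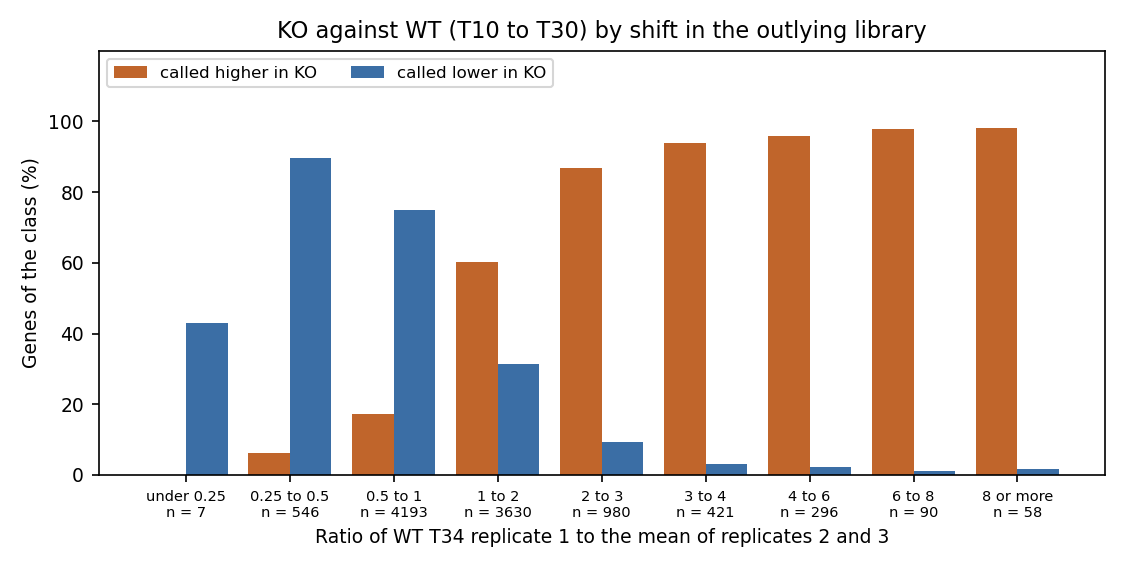
Share (%) of genes called higher or lower in KO against WT over T10 to T30 by edgeR, in classes of the ratio of WT T34 replicate 1 to the mean of replicates 2 and 3; n is the number of genes in each class. The share called higher is 6.23% at ratios of 0.25 to 0.5 and 98.3% at 8 or more, and the class under 0.25 holds 7 genes. Genes under the 10 CPM minimum are left out.

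The same 10221 genes at or above the 10 CPM minimum were also read the other way, from the KO difference. The shift in replicate 1 was graded among genes higher in KO and much less so among genes lower in KO. Genes with a KO log2 fold change between -1 and 0 had a median ratio of 0.80, and 0.104% of these 4796 genes were raised. Between 0 and 1 the median ratio was 1.39 and 1.22% of 3759 genes were raised, and between 1 and 2 it was 2.83 and 16.2% of 1009 genes. At 2 or more it was 5.04, and 103 of the 189 genes (54.5%) were raised. The others in that last class did not meet the rule. Genes with a mean under 10 CPM in replicates 2 and 3 enter these classes only where replicate 1 reaches 10 CPM. That favours high ratios and high shares of raised genes, so these values are partly built in. Of all 369 genes called higher in KO by at least 4-fold, 27.9% were raised. At the other end, the 57 genes with a log2 fold change under -2 had a median ratio of 0.66, which was close to the 0.68 of the 411 genes between -2 and -1.

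The 2 genes left out of the column sums separated KO from WT libraries with no overlap. ENSRNOG00000043866 took up 15.8 to 19.0% of the counts in the KO libraries, a median of 171340 CPM over all genes. In WT T34 replicate 1 it had 2513 CPM, which is 1.47% of that median. The other 20 WT libraries ran from 251 to 1770 CPM, the highest being T30 replicate 3. ENSRNOG00000030478 had a median of 20631 CPM in KO, 833 CPM in WT T34 replicate 1 (4.04% of the KO median) and 50.4 to 1274 CPM in the other WT libraries, again with T30 replicate 3 highest. WT T30 replicate 3 had 6 raised genes and 1 lowered gene under the rule. The part of these 2 levels in the shift was not tested.

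Time was the second tested comparison. In KO, T34 against T10, edgeR called 145 of the 318 raised genes lower (45.6%), beside 26.6% of the 13763 genes tested. It called 20 higher (6.29%), beside 25.8% of all genes. The median log2 fold change of the raised genes was -0.24, against -0.00 for all genes. In the 145 called lower it had a median of -0.48, and in the 20 called higher 0.41. This drop came with 2 of the 3 libraries: summed over the raised genes, KO replicates 2 and 3 of T34 had 15413 and 15917 CPM and replicate 1 had 20508 CPM, while the 3 KO libraries of T10 held 20121 to 22229 CPM. Without KO replicate 2 at all times, 29.2% of raised genes were called lower, beside 20.8% of all genes. Without KO replicate 3 these shares were 36.5% and 20.2%, and without replicate 1 they were 44.7% and 23.9%.

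In 279 of the 318 raised genes (87.7%), all 3 KO libraries of T34 were above all 18 WT libraries of T10 to T30, beside 34.9% of all genes. Of the 309 raised genes called higher in KO over T10 to T30, 141 (45.6%) were called lower in KO at T34 than at T10, beside 32.3% of the 6186 genes called higher in KO. For ENSRNOG00000029971 the T34 difference was -0.31 (SE 0.09, edgeR adjusted p = 0.00587), which was lost without KO replicate 2 (adjusted p = 0.142) or replicate 3 (adjusted p = 0.0518). For ENSRNOG00000030700 it was -0.56 (SE 0.20, edgeR adjusted p = 0.0246), also lost without KO replicate 2 (adjusted p = 0.192) or replicate 3 (adjusted p = 0.272). At T34 the summed level of the raised genes was lower in 2 of the 3 KO libraries than in any KO library of T10. All 3 stayed above every WT library except replicate 1 of T34, the 1 high WT library, which chose the genes. The summed level in KO had an SD of 2807 CPM at T34 and of 543 (T18) to 2137 CPM (T26) at the earlier times (n = 3 each).

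Before T34, the raised genes showed little movement in WT. Comparing T30 with T10 in WT, edgeR called 27 of the 318 higher (8.49%), beside 16.4% of the 13748 genes tested, and 22 lower (6.92%), beside 17% of all genes. Their median log2 fold change was 0.03. Within the WT groups of T10 to T30, their coefficient of variation had a median of 11.1%, against 6.40% for all genes. These 2 sets of genes were not matched for level, and the raised genes were of lower level. The part of this spread and of their lower level in the small number of calls was not tested. Without WT replicate 2, 0.943% were called lower and 9.75% higher, beside 8.29% and 6.76% of all genes. Without WT replicate 1, 3.14% were called higher, beside 12% of all genes.

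The 5 lowered genes were of 2 kinds. Of them, 2 had an even level in all other WT libraries and were low in replicate 1. ENSRNOG00000030871 had 54.8 CPM in replicate 1, 270 CPM in replicate 2 and 226 CPM in replicate 3. The WT libraries of T10 to T30 held 228 to 284 CPM (median 255 CPM) and the KO libraries 124 to 160 CPM (median 147 CPM). Replicate 1 was below every other library of either genotype, and KO was below WT with no overlap. Its KO difference over T10 to T30 was -0.80 on the log2 scale (SE 0.02, edgeR adjusted p = 3.96e-28). In KO, T34 was below T10, with a difference of -0.24 (SE 0.04, edgeR adjusted p = 5.63e-05). In WT T30 was above T10 by 0.15 on the log2 scale (edgeR adjusted p = 0.0188), which was lost without WT replicate 2 (adjusted p = 0.339) or replicate 3 (adjusted p = 0.0911).

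ENSRNOG00000038864 had 11.4 CPM in replicate 1, 51.2 CPM in replicate 2 and 46.3 CPM in replicate 3. WT libraries of T10 to T30 ran from 33.9 to 51.1 CPM (median 46.1 CPM) and KO libraries from 24.996 to 33.7 CPM (median 28.0 CPM). It too was below all other 41 libraries in replicate 1, with KO between. The KO difference was -0.66 (SE 0.04, edgeR adjusted p = 3.61e-15), and neither time comparison called it. From high to low, the order in both genes was WT, then KO, then WT T34 replicate 1. The rule favours the end place of replicate 1, as it does in the raised genes. Only the order of WT and KO rests on libraries that the rule did not use.

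The other 3 lowered genes varied strongly between libraries of both genotypes. One had 2.36 CPM in replicate 1 against 18.5 and 16.2 CPM, with 2.11 to 25.5 CPM in the WT libraries of T10 to T30. Another had 1.64 CPM against 19.3 and 10.5 CPM, with 0.158 to 12.8 CPM in those libraries. The last had 0.384 CPM against 47.6 and 5.74 CPM, with 0.311 to 102 CPM. The medians of the earlier WT libraries were 3.38, 2.60 and 1.40 CPM in the same order. Replicate 1 stood at 0.697, 0.631 and 0.274 times these medians, and replicates 2 and 3 were above them in each gene. These genes thus met the rule partly through high levels in replicates 2 and 3. In each of them, replicate 1 lay within the range of the earlier WT libraries. Replicate 1 was thus below all other 20 WT libraries in 2 of the 5 lowered genes, beside 31.5% of all genes, and nothing is read from that share either. Their KO differences were not called (edgeR adjusted p = 0.729, 0.197 and 0.411). Over all 5 lowered genes, 2 were called lower in KO and 0 higher, with a median log2 fold change of -0.66, a count too small to read against the share of all genes.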

How the data were processed

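RNA of GH4C1 cells was sequenced in 42 libraries as strand-specific paired reads, per the labels' protocols. The authors deposited raw counts per gene, made with featureCounts per the submitters' processing notes; its version, the aligner and the genome build are not given in the sources used here. Totals ran from 34.5 to 68.8 M counts (M for 1000000). Nothing in the labels says whether replicates were separate cultures, so p-values measure the spread between these libraries, which may be technical. Each replicate pair differed by more than sampling noise (chi-square per degree of freedom at least 5.48 in 42 pairs).

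CPM and the rule for members were computed here, without the 2 genes named in the report. Counts were tested with edgeR 4.0.16 (R 4.3.3; filterByExpr, TMM, quasi-likelihood F test), fitted to all genes, with Benjamini-Hochberg adjustment and calls at an adjusted p under 0.05. One mean was fitted per genotype and time, over 36 libraries for KO against WT, 21 for time in KO and 18 for time in WT. On simulated counts with 200 genes changed by 1 on the log2 scale, these recovered 99.5% (of 13775 genes, 6 false calls), 88.5% (of 13760, 9 false calls) and 91% (of 13744, 6 false calls). In the simulation, changes up and down were balanced and all other genes kept equal means. It therefore does not measure false calls where most genes are called, as in KO against WT. DESeq2 1.42.0 served as an alternative.

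The members and lists were chosen with earlier results of these data known. Without symbols, the planned gene lists, cell type markers and promoter motifs could not be used. Named genes are the 2 raised with the highest CPM in WT T34 replicate 1 and the 2 lowered with the highest mean in replicates 2 and 3; others are described by an extreme value.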

Additional observations from a re-analysis of the deposited data

How the results depend on the processing

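Over 29 results, 369 alternatives were computed, and 314 kept the direction, the side of the threshold and, for counts and shares, a value within 1.5 times; none reversed. The share of raised genes called higher in KO stayed within 1.5 times in every alternative run, as did the 308 of DESeq2. With members chosen on TMM-scaled CPM, 258 raised and 5 lowered genes were tested. Of the 258, 97.3% were called higher in KO. Values that moved follow. The number of members was 666 raised and 23 lowered with a ratio of 3, 33 and 1 with a ratio of 8, and 161 and 1 with a minimum of 50 CPM. For KO against WT, the share of raised genes called lower was 0.735% with a filter at a mean of 5 CPM (272 tested), 0.629% with all 42 libraries fitted, 2.85% with a ratio of 3, 3.03% with a ratio of 8 and 0.621% with 50 CPM. It was 0.735% in the 136 members with a mean of 10 CPM in WT T34 replicates 2 and 3, an alternative chosen after seeing the data. Lowered genes called lower numbered 13 (of 23), 0 (of 1) and 1 (of 1) with a ratio of 3, a ratio of 8 and 50 CPM; 4 were called higher with a ratio of 3, and 0 to 1 with each WT or KO replicate left out.

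For T34 against T10 in KO, fitting all 42 libraries, which brings in the spread of WT T34 replicate 1, left 4684 genes called, 3.77% of raised genes lower, 0% higher, and 0 lowered genes lower. The log2 fold change was then no longer called for ENSRNOG00000029971 (adjusted p = 0.456), ENSRNOG00000030700 (0.179) or ENSRNOG00000030871 (0.455). Leaving out each KO replicate gave 29.2% to 44.7% lower and 4.09% to 6.29% higher. Raised genes called higher were 9.76% with a ratio of 3 and 3.03% with a ratio of 8; lowered genes called lower were 5 and 0, and 4 were called higher with a ratio of 3. For T30 against T10 in WT, all 42 libraries gave 2443 genes called, 0.314% of raised genes higher and 0.314% lower, 0 lowered genes higher, and no call for ENSRNOG00000030871 (adjusted p = 0.756). Leaving out each WT replicate gave 2069 to 4061 genes called, 3.14% to 9.75% of raised genes higher, 0.943% to 6.60% lower, 0 to 2 lowered genes higher and 0 to 1 lower. Raised genes called lower were 10.8% with a ratio of 3 and 3.03% with a ratio of 8; lowered genes called higher were 6 and 0, and 1 was called lower with a ratio of 3. Apart from other numbers of members or libraries, the cause was not tested.

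Replicate numbers were not taken to pair the libraries, since not every same-numbered pair had deviations correlated above 0.1. In WT 13 of 45 same-numbered and 27 of 90 other pairs did, in KO 23 of 63 and 10 of 126, and across genotypes 20 of 108 and 40 of 216. The median correlation in KO was 0.05 for the same number and -0.02 for different numbers, a hint of shared numbers from the data and not the design. With a replicate block, 97.2% of raised genes were called higher in KO, 50.3% lower at T34 in KO, and 12471, 7316 and 4407 genes were called in the 3 comparisons.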
